A study of Homo sapiens with 15 samples.

Results

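The genes described here were the well-expressed ZNF genes of THP-1 cells, a human monocytic leukaemia line. They were the protein-coding genes whose symbol is ZNF followed by digits alone and whose mean in the 3 PBS libraries reached 10 CPM (the count divided by the library total and scaled to 1e6). The rule took 249 of the 475 ZNF genes of that form, in a table of 60286 genes. Wild-type THP-1 cells had received PBS or bacterial extracellular vesicles (BEVs), which were isolated from cultures of Escherichia coli at 1 μg/mL or of Staphylococcus aureus at 10 μg/mL. Each species' BEVs came from ultracentrifugation (UC) or from precipitation with ε-poly-L-lysine (PL), which gave the groups PBS, EUC, EPL, SUC and SPL with 3 RNA-seq libraries each. The exposure lasted 6 h. Species and dose changed together, so they cannot be told apart. The study's methods describe replicate stimulations of cells in wells, but neither they nor the labels say whether the libraries of a group came from separate cultures or experiments, so p-values measure the spread between libraries, which may be technical. THP-1 is a single tumour-derived line, and it stands for monocytes only within that limit.

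Most ZNF proteins carry tandem C2H2 zinc fingers, in which a pair of cysteines and a pair of histidines hold a zinc ion and the finger reads a short stretch of DNA. Many also begin with a KRAB box, which recruits the corepressor TRIM28 and, through it, the histone methyltransferase SETDB1, so that chromatin at the bound site is silenced. Numerous KRAB zinc finger genes lie in clusters on chromosome 19, and many of their products bind retroelements.

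The 249 genes lay on 21 chromosomes, with 102 of them on chromosome 19 (GRCh38, GENCODE 44). A KRAB A-box motif was found in the translated canonical transcript of 106 genes, 67 of them on chromosome 19, and was not found in 143. A miss does not show that a protein lacks the domain, since the motif search was strict. The proteins held a median of 10 C2H2 finger matches, the highest number was 40, and 6 proteins had none. Their canonical transcripts had a median length of 4405 bases, against 2769.5 bases over all tested genes with a length, and a median GC content of 44% against 48.7%.

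PBS levels chose these genes and are given as a description. The mean PBS level ran from 10.2 to 293.5 CPM with a median of 24.3 CPM. The genes just inside the threshold were ZNF813 at 10.17 CPM, ZNF225 at 10.25 CPM and ZNF718 at 10.25 CPM. Just outside it were ZNF350 at 9.74 CPM, ZNF606 at 9.91 CPM and ZNF577 at 9.92 CPM. Per kilobase of canonical transcript, the only scale on which levels of different genes are compared here, the PBS level had a median of 5.4 CPM per kilobase. The highest was ZNF692 with 60.2 CPM per kilobase. It was followed by ZNF787 with 49.1, ZNF684 with 46.5, ZNF672 with 34.2 and ZNF598 with 33.9 CPM per kilobase. ZNF598 is the ubiquitin ligase that marks collided ribosomes.

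The libraries held 14399421 to 16637345 counts each, and a single ZNF member had between 56 and 6317 counts in a library, with a median of 333. Summed myeloid markers were 1687 to 1716 CPM in PBS and 2033 to 2464 CPM in BEV libraries, but the 11 markers did not move together. SPI1 was at 494 to 519 CPM in PBS and 899 to 1310 CPM with BEVs, and CD14 and PTPRC too were above PBS in every BEV library. CD33, LYZ, CEBPA and MPO were below PBS in every BEV library, CEBPA with 442 to 454 CPM against 261 to 332 CPM. The other 4 overlapped, and CD68 was at most 0.19 CPM and at 0 in EUC1 and EPL1. Both erythroid markers were at 0 in every library. The summed 3 T-cell markers reached at most 0.064 CPM, the 3 B-cell markers 1.26 to 5.78 CPM and the 2 fibroblast markers 0.69 to 4.91 CPM. The 2 endothelial markers, of which PECAM1 is also a monocyte gene, summed to 196 to 330 CPM. The part of the marker levels in the results was not tested. In bulk RNA, fewer cells of a type and less RNA per cell cannot be told apart.

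EUC3, EPL1 and SUC3 stood apart from the other libraries of their groups. The chi-square per gene between them and their partners was 15.56 to 46.13, while it was 2.2 to 4.35 between PBS libraries and 2.81 to 7.09 between the other BEV pairs. Across 17174 genes, their deviation from the group mean correlated with log2 transcript length at r = -0.17, -0.16 and -0.187, as a description over genes that share a library. With GC content the r was -0.021 in EUC3, 0.26 in EPL1 and 0.0481 in SUC3, so in EPL1 it was larger in size than that with length. ZNF transcripts are long and low in GC content, as given above, but the part of this in the following medians was not tested. The median log2 ratio of the 249 members to the PBS mean was -0.17 in EUC3, -0.16 in EPL1 and -0.15 in SUC3. In the other 9 BEV libraries it was -0.12 to -0.02. Calls per BEV group and between species, and DEG counts over all 4 groups, were therefore also computed without these 3 libraries. They are given where they changed by over 1.5 times. The other counts below were not recomputed without these libraries, so their stability is not known.

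**Figure D1:**
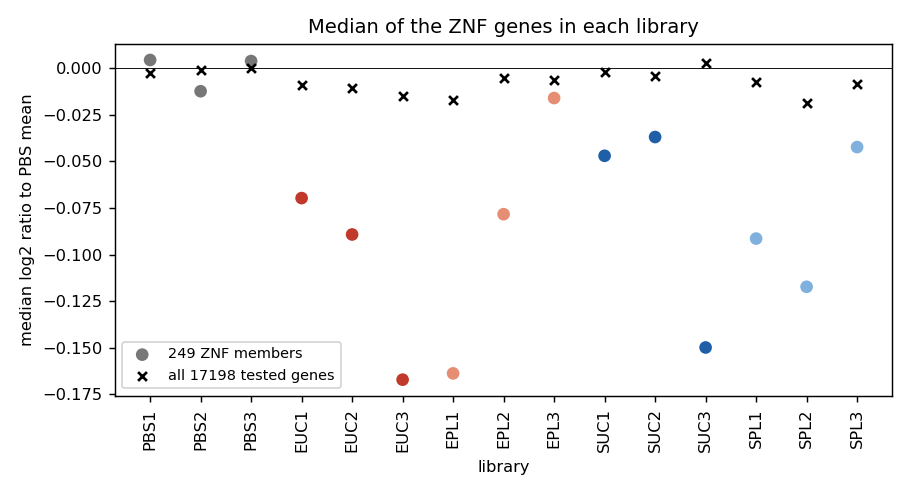
Each coloured point is the median log2 ratio of the 249 ZNF members to their PBS mean in one library, and each cross is the same median over all 17198 tested genes. The x axis lists the 15 libraries. EUC3, EPL1 and SUC3 have the lowest ZNF medians, from -0.17 to -0.15, and the crosses lie near 0.

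With BEVs, the ZNF genes as a group moved little. Of the 249, 202 stayed under 0.5 in absolute log2 fold change in all 4 BEV groups (81.1%), against 67.7% of the 9084 protein-coding genes that reached 10 CPM in PBS. Against PBS, the members had a median log2 fold change of -0.10 (EUC), -0.08 (EPL), -0.08 (SUC) and -0.07 (SPL). The median of all 17198 tested genes was within 0.01 of 0, and the well-expressed protein-coding genes had -0.011, -0.030, 0.001 and -0.024. By PBS level, the 100 members of 10 to 20 CPM had medians of -0.148, -0.090, -0.101 and -0.124. The 82 members of 20 to 40 CPM had -0.119, -0.093, -0.079 and -0.094. The 67 members of 40 CPM or more had -0.002, -0.032, -0.004 and -0.026, near those of the well-expressed genes. The median of all genes itself depended on the scaling, as it was -0.16, -0.12, -0.11 and -0.12 in the same order when total counts alone were used. The members' medians were then -0.27, -0.20, -0.20 and -0.18, so they were below that of all genes under this scaling too. Because PBS libraries chose the members, each comparison with PBS is not independent of the choice, and the 4 comparisons share the same PBS libraries.

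The share of all counts that fell on the 249 genes was 0.911% ± 0.0181 in PBS (SD, n = 3). The E. coli groups had 0.799% ± 0.0766 (EUC) and 0.833% ± 0.0447 (EPL), and the S. aureus groups 0.813% ± 0.0578 (SUC) and 0.821% ± 0.0239 (SPL). After TMM scaling, which corrects for the composition of each library, the summed level was 8486 ± 86.3 CPM in PBS and 8224 to 8453 CPM in the BEV groups, with SDs of 160 to 451. By share of raw counts every BEV library was below every PBS library, and on the TMM scale the libraries overlapped.

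Genes counted as differentially expressed (DEGs) if they changed at least 2-fold and their p, adjusted after Benjamini and Hochberg over all 17198 tested genes, did not exceed 0.01 in the quasi-likelihood test of edgeR. Of the 249 ZNF genes, 5 were lower and 3 higher in EUC, against 5.75% and 9.43% of all tested genes. In EPL 7 were lower and 3 higher, against 5.15% and 9.38%. In SUC 3 were lower and 2 higher, against 3.06% and 6.82%, and in SPL 6 were lower and 2 higher, against 3.7% and 7.76%. With total counts in place of TMM factors the DEGs were 9 lower and 2 higher in EUC and 4 lower and 1 higher in SUC, and with upper-quartile factors they were 7 lower and 2 higher in EUC. Counted in either direction, DEGs made up 3.21%, 4.02%, 2.01% and 3.21% of the ZNF genes with EUC, EPL, SUC and SPL. They made up 10.9%, 10.4%, 6.89% and 8.06% of the well-expressed protein-coding genes.

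In any of the 4 BEV groups, 10 ZNF genes were DEGs, or 4.02%, against 17.3% of all tested genes and 11.8% of the well-expressed ones. None of the 10 was called in both directions. Without the fold threshold, 60 ZNF genes passed in at least 1 group, or 24.1%, against 35% of all tested genes and 40.7% of the well-expressed ones. By group, 35 were lower and 15 higher in EUC, against 14% and 16.5% of all tested genes. The counts were 31 lower and 15 higher in EPL against 13.2% and 16%, 28 and 10 in SUC against 9.15% and 12.4%, and 29 and 10 in SPL against 10.6% and 13.3%. The ZNF genes lower made up 14.1%, 12.4%, 11.2% and 11.6% of the members, and those higher 6.02%, 6.02%, 4.02% and 4.02%. Among the well-expressed protein-coding genes 18.8%, 18.3%, 13.1% and 15.1% were lower and 17.3%, 16.5%, 13.1% and 13.6% higher.

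Without EUC3, EPL1 and SUC3, the adjusted p alone passed 46 lower and 24 higher in EUC, 50 and 31 in EPL, 41 and 16 in SUC, and 55 and 19 in SPL. The members' medians were -0.10, -0.05, -0.02 and -0.06. In that fit 28.1%, 32.5%, 22.9% and 29.7% of the members passed in either direction, against 38%, 39.8%, 29.1% and 35.2% of all tested genes. With members chosen by 1 PBS library and compared with the other 2, 246 to 254 genes were taken. Of these, 28 to 34 were lower and 11 to 12 higher in EUC, and 20 to 22 were lower and 4 to 5 higher in SUC. In EPL 24 to 28 were lower and 11 to 13 higher, and in SPL 23 to 25 were lower and 5 to 7 higher. The lower genes made up 11.4% to 13.4% of these members in EUC, against 10.9% to 11.1% of all tested genes in the same fits, and 8.13% to 8.66% in SUC against 6.66% to 6.85%. The higher genes made up 4.33% to 4.72% in EUC against 13.7% to 13.8%, and 1.63% to 1.97% in SUC against 9.96% to 10.1%. In EPL the shares were 9.76% to 11% lower against 9.95% to 10.4% and 4.47% to 5.12% higher against 13.2% to 13.3%. In SPL they were 9.35% to 9.84% lower against 7.72% to 8.12% and 2.03% to 2.76% higher against 10.8% to 11.1%.

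**Figure D2:**
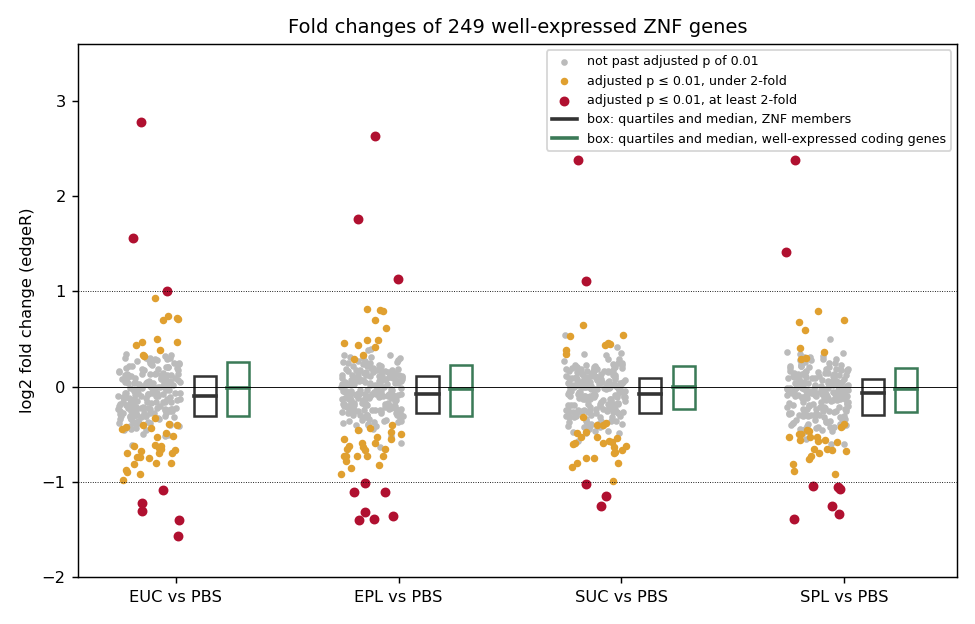
Points are the edgeR log2 fold changes of the 249 ZNF genes in each BEV group against PBS, coloured by whether they passed an adjusted p of 0.01 and a 2-fold change. Boxes give the quartiles and the median of the ZNF genes and of the 9084 well-expressed protein-coding genes, dotted lines mark 2-fold changes, and the ZNF boxes sit slightly below 0 with few points beyond the lines.

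The interval behind most of these values was narrow. The 95% interval of the fold change lay within 2-fold of PBS for 226 ZNF genes (EUC), 226 (EPL), 236 (SUC) and 233 (SPL). In EUC that was 90.8% of the ZNF genes, 57.7% of all tested genes and 82.2% of the well-expressed protein-coding genes. The 5 genes with the smallest largest change over the 4 groups were ZNF93, ZNF266, ZNF24, ZNF586 and ZNF146, whose largest absolute log2 fold change was 0.03 to 0.06. ZNF93, which silences LINE-1 elements, averaged 42.2 CPM in PBS and 42.5 to 43.2 CPM in the BEV groups.

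ZNF697 had the largest increase of the 249 genes. It is a C2H2 gene on chr1:119619377-119648266 (minus strand) whose protein held 11 finger matches and no KRAB match. Its PBS libraries held 14.3, 14.1 and 14.7 CPM. The EUC libraries held 99.7, 103 and 92.2 CPM, the EPL libraries 81.2, 94.6 and 90.3, the SUC libraries 80.7, 75.8 and 67.1, and the SPL libraries 77, 70.5 and 77.1 CPM. Every BEV library was far above every PBS library, and every E. coli library was above every S. aureus library. ZNF697 was 6.85-fold higher in EUC (log2 2.78 ± 0.095, SE), 6.19-fold in EPL, 5.2-fold in SUC and 5.22-fold in SPL (edgeR adjusted p from 2.61e-13 to 2.91e-12).

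ZNF366, known as DC-SCRIPT, is a nuclear receptor and CtBP cofactor of dendritic cells, and it was the other gene called higher in all 4 groups. Its PBS libraries held 11.6, 11.2 and 10.6 CPM. The EUC libraries held 44.4, 32.8 and 21.2 CPM, the EPL libraries 25.2, 47.1 and 41.3, the SUC libraries 30.3, 24.6 and 17.2, and the SPL libraries 30.9, 29 and 29 CPM. All BEV libraries were above all PBS libraries, and EUC3, EPL1 and SUC3 were the lowest of their groups. The log2 fold changes were 1.56 ± 0.257 (SE) with EUC, 1.77 ± 0.256 with EPL, 1.11 ± 0.259 with SUC and 1.41 ± 0.257 with SPL (edgeR adjusted p from 2.71e-05 to 0.00312). In SUC the call was lost when any 1 PBS library, SUC1 or SUC2 was left out, with log2 fold changes of 0.92 to 1.14 and edgeR adjusted p from 0.0104 to 0.0189, and it was lost with total counts in place of TMM factors.

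ZNF710, named after its values were seen, is on chr15:90001324-90082206 and has an antisense neighbour, ZNF710-AS1. Its PBS libraries held 52.1, 47.5 and 45.9 CPM, its EUC libraries 114, 105 and 73.7, and its EPL libraries 103, 117 and 97.7. The SUC libraries held 83.8, 69.9 and 58.3 and the SPL libraries 84.6, 86.8 and 81.3 CPM. All BEV libraries were above PBS, with EUC3 and SUC3 the lowest of their groups. It was a DEG in EUC (log2 1.01 ± 0.145, SE) and EPL (log2 1.13 ± 0.145), and passed the adjusted p alone in SPL (log2 0.80 ± 0.145) and SUC (log2 0.54 ± 0.145, edgeR adjusted p = 0.00836). The SUC call was lost without any 1 PBS library, SUC1, SUC2 or any 1 SPL library. ZNF710-AS1 was at 9.4 CPM in PBS and 9.2 to 11.5 CPM in the BEV groups, and its edgeR adjusted p was 0.0578 to 0.742. Whether the counting used strand is not given in the sources used here.

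ZNF670 and ZNF438 were the genes called lower in all 4 groups without overlap of any BEV and PBS library. ZNF670 is a KRAB zinc finger gene on chr1:247034637-247078811 with 9 finger matches. Its PBS libraries held 44.8, 47.1 and 45.7 CPM. Its EUC libraries held 16, 16 and 20.2 CPM, the EPL libraries 18.7, 16.5 and 20, the SUC libraries 16.5, 20.8 and 20.3, and the SPL libraries 16.8, 18.2 and 17.5 CPM. Each BEV library was below 21 CPM. The level was 2.64-fold lower in EUC, 2.49-fold in EPL, 2.39-fold in SUC and 2.62-fold in SPL, with edgeR adjusted p from 2.39e-08 to 1.43e-07. It shares exons with the readthrough ZNF670-ZNF695, which was at 0.81 to 1.26 CPM over the groups, so the split of reads between them is uncertain.

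ZNF438 on chr10:30820207-31031937 varied little within each group. The PBS libraries held 77.5, 78.8 and 76.8 CPM. Its EUC libraries held 31.3, 30.9 and 32.1 CPM, the EPL libraries 29.9, 30.1 and 28.8, the SUC libraries 34.2, 35.4 and 35.1, and the SPL libraries 33, 31.7 and 32.7 CPM. The BEV groups did not come near PBS, and EUC3, EPL1 and SUC3 were not apart. It was 2.47-fold lower in EUC, 2.62-fold in EPL, 2.23-fold in SUC and 2.39-fold in SPL (edgeR adjusted p from 4.12e-11 to 6.41e-10).

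The 250 bases upstream of the RefSeq start were compared for these 3 genes, because a rising gene and 2 falling genes were available in the table (RefSeq, GRCh38.p14, minus strand, written 5′ to 3′). ZNF366 and ZNF710 had no entry. Capitals mark a match to the NF-κB consensus of 10 letters, searched on both strands and found here on the strand opposite to the gene.
ZNF697: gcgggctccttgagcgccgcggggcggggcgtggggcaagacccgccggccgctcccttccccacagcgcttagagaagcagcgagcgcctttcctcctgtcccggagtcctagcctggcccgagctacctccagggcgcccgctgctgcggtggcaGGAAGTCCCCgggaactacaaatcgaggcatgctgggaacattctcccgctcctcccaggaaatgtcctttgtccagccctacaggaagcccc
ZNF670: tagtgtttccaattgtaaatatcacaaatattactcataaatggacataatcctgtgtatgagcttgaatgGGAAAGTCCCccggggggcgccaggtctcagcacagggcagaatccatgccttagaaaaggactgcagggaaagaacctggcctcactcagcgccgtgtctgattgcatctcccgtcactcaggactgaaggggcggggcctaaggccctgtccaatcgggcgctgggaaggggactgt
ZNF438: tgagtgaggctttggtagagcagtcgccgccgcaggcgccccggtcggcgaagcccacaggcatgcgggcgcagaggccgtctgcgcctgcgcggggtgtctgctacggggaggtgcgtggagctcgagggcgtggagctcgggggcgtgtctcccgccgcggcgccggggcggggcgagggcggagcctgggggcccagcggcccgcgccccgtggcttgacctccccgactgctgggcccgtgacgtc

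These windows lie at chr1:119648267-119648516, chr1:247078812-247079061 and chr10:31031866-31032115. A match was in both the rising ZNF697 and the falling ZNF670, and ZNF438 held none. The shares below are over RefSeq windows of 300 bases, which run past the start. Of the 211 members with a window, 11.4% held the NF-κB consensus and 6.16% the AP-1 sequence TGANTCA, on either strand, with a window counted for each motif it held. Of all 27305 windows, 10.8% and 7.76% did. A match is a description of letters and no match says nothing of the factor.

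Of the other 5 DEGs, all lower and named after their values were seen, ZNF589 changed most in EUC. ZNF589, also called SZF1, is a KRAB zinc finger gene of haematopoietic progenitors, although the motif used here did not find its KRAB box. In PBS it was at 26.4, 28.9 and 30.9 CPM. Its EUC libraries held 11.3, 8.78 and 8.94 CPM, the EPL libraries 11.8, 11.1 and 9.87, the SUC libraries 14.1, 15.2 and 14, and the SPL libraries 13.5, 14.2 and 13.3 CPM. All S. aureus libraries lay between the E. coli libraries and PBS. The log2 fold change was -1.57 ± 0.114 (SE) in EUC and -1.40 ± 0.113 in EPL, and it was -0.99 ± 0.11 in SUC and -1.07 ± 0.111 in SPL. ZNF589 was a DEG in EUC, EPL and SPL, and in SUC the edgeR adjusted p was 1.86e-06 with a change just under 2-fold.

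ZNF658, a regulator of ribosomal RNA transcription that responds to zinc, was at 14.8, 13.6 and 12.9 CPM in PBS and at 5.41 to 7.99 CPM in the 12 BEV libraries. ZNF439 was at 12.5 to 13.7 CPM in PBS and 4.12 to 8.47 CPM with BEVs. ZNF48 was at 11.1 to 12.5 CPM in PBS and 3.5 to 7.81 CPM with BEVs. All 3 genes had no overlap between PBS and BEV libraries. Their log2 fold changes ran from -1.22 to -0.85, from -1.33 to -0.81 and from -1.36 to -0.98, and each passed the adjusted p in all 4 groups. ZNF48 shares its locus with the antisense gene SEPTIN1, which was at 0.43 to 0.84 CPM over the groups.

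ZNF556 was the least certain of the 10. Its PBS libraries held 18.9, 18.3 and 17.3 CPM, and its BEV libraries ran from 7.35 to 13.8 CPM. It was a DEG in EPL alone (log2 -1.02 ± 0.175, SE, edgeR adjusted p = 0.000159), and the EUC and SUC calls of the adjusted p were lost under several alternatives.

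**Figure D3:**
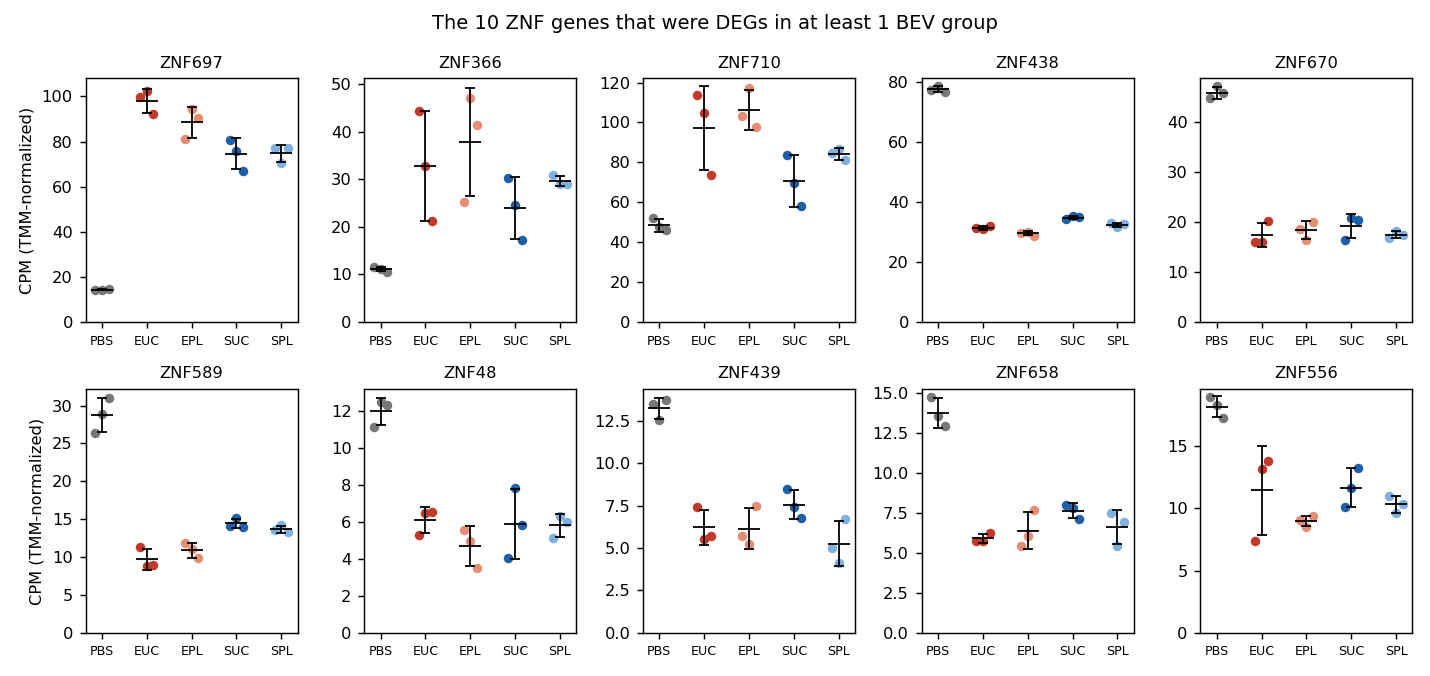
CPM after TMM scaling in each library for the 10 ZNF genes that were DEGs in at least 1 BEV group, with the group mean and SD (n = 3) as bars, by group on the x axis. For 7 of the genes the BEV points lie below the PBS points, and for ZNF697, ZNF366 and ZNF710 they lie above.

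Over the 4 groups together, 23 ZNF genes were lower in all of them by the adjusted p alone and 7 were higher, or 9.24% and 2.81% of the members, against 7.67% and 10.9% of all tested genes and 11.5% and 11.4% of the well-expressed protein-coding genes. A fold change of at least 2 in all 4 groups was reached by 2 lower and 2 higher genes, against 2.41% and 6.33% of all tested genes and 2.39% and 3.96% of the well-expressed ones. Every BEV library lay below every PBS library for 47 members (18.9%) and above for 17 members (6.83%), against 16.1% and 17.5% of all tested genes and 21.3% and 19.5% of the well-expressed ones. The share of lower members thus lay above that of all tested genes and below that of the well-expressed genes, by the adjusted p and by library. Of the 23 lower genes, 4 were on chromosome 19 and 7 had a KRAB match. None of the 7 higher genes was on chromosome 19 and 1 of them had a KRAB match. Of all 249 members, 41% lay on chromosome 19 and 42.6% had a KRAB match, and the difference in shares was not tested.

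The 7 higher genes included ZNF746 (PARIS), a repressor that is a substrate of the ubiquitin ligase parkin, and ZNF655, an interactor of the signalling protein VAV1. ZNF746 was at 46.9 to 52.3 CPM in PBS and at 72.3 to 83.9 CPM in the BEV libraries, with log2 fold changes of 0.62 to 0.71. ZNF655 was at 37.8 to 39.3 CPM in PBS and 47 to 58.1 CPM with BEVs, with log2 fold changes of 0.41 to 0.49. Both were named after their values were seen.

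**Figure D4:**
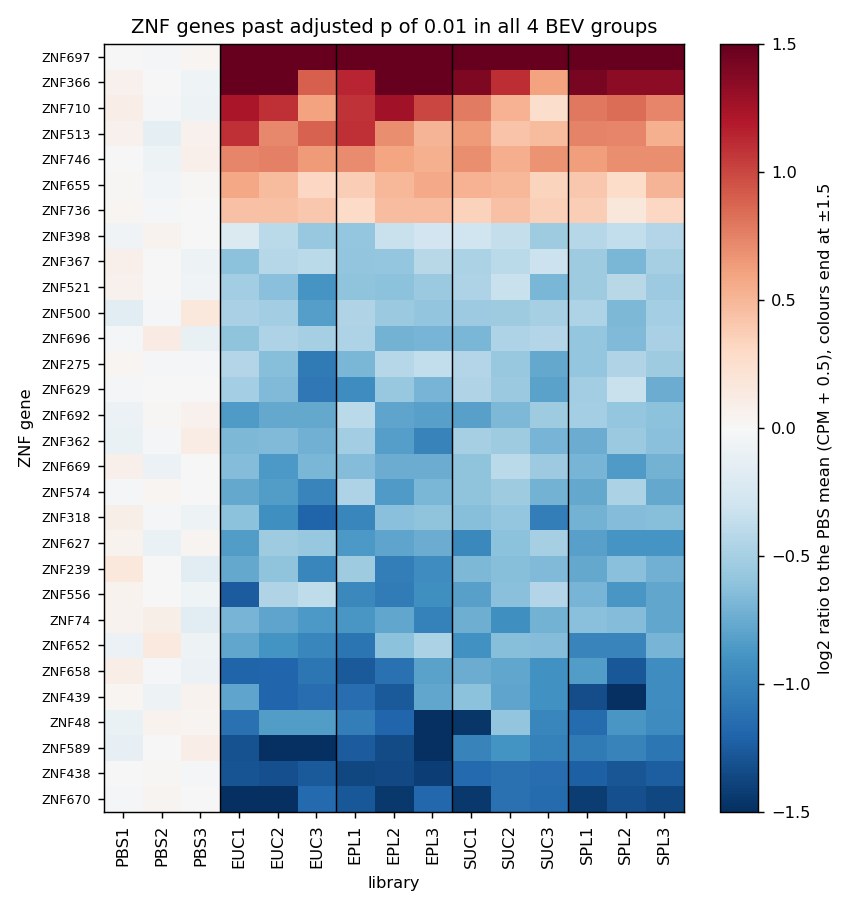
Log2 ratio of each library to the PBS mean, on CPM + 0.5, for the 30 ZNF genes that passed an adjusted p of 0.01 in all 4 BEV groups. Rows are genes and columns are the 15 libraries, red is above and blue below PBS, and colours end at 1.5 in either direction. ZNF697 is beyond the scale, as are some libraries of other genes, among them ZNF366, ZNF589 and ZNF48. The 7 upper genes are red and the 23 lower genes blue in all BEV columns.

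By place and domain, the groups of members differed little in their medians. On chromosome 19 the median log2 fold change was -0.08 (EUC), -0.07 (EPL), -0.04 (SUC) and -0.07 (SPL), with 9 of the 102 genes lower and 4 higher by the adjusted p in EUC. On the other chromosomes it was -0.11, -0.08, -0.09 and -0.07, with 26 of 147 lower and 11 higher in EUC. For the 106 genes with a KRAB match the medians were -0.12, -0.08, -0.06 and -0.09, and for the 143 without they were -0.07, -0.07, -0.09 and -0.06. These are counts and medians beside one another, and their differences were not tested.

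Other members within 1000 kb of a DEG, measured between the lower coordinates of the genes, were examined as a description. Only ZNF670, ZNF439 and ZNF48 had such neighbours. Of all 249 members, 9.24% passed as lower in all 4 groups, against 7.67% of all tested genes. In at least 1 group and either direction the shares were 24.1% and 35%. Whether neighbours passed more often than other members was not tested. The nearest to ZNF670 was ZNF669, 65 kb away, which passed the adjusted p as lower in all 4 groups, with log2 fold changes of -0.77 to -0.53. ZNF124, 87 kb away, passed in 3 groups, and ZNF496 and ZNF695 in none. Near ZNF439, ZNF627 passed as lower in all 4 groups with -0.88 to -0.66, ZNF440 and ZNF791 passed in 1 group each, and ZNF136, ZNF44, ZNF441 and ZNF700 passed in none. Near ZNF48, ZNF629 at 400 kb passed as lower in all 4 groups with -0.74 to -0.53. ZNF764 passed in 2 groups and ZNF785 in 1, and ZNF646, ZNF668, ZNF688, ZNF689 and ZNF768 passed in none, although ZNF768 was the nearest at 146 kb.

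On the role lists, 9 of 39 members passed the adjusted p in at least 1 BEV group, or 23.1%, which was near the 24.1% of all members and below the 35% of all tested genes. Of 6 members with known roles in blood cells or leukaemia, ZNF521, a regulator of haematopoietic progenitors, and ZNF362, a fusion partner in leukaemia, passed as lower in all 4 groups, and ZNF148, ZNF281, ZNF292 and ZNF384 did not pass. ZNF521 was at 93.4 to 102 CPM in PBS and 52.3 to 76.7 CPM in BEV libraries, with log2 fold changes of -0.67 to -0.49. ZNF362 was at 27.5 to 31.9 CPM in PBS and 14.5 to 20.6 CPM with BEVs, with -0.79 to -0.58. No overlap was seen for either gene.

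Of 10 members of chromatin complexes, only ZNF318, which controls the splicing of immunoglobulin D transcripts, passed, with 77.1 to 86.8 CPM in PBS and 35.3 to 54.5 CPM in BEV libraries. Of 6 members that bind RNA, ZNF638 passed as higher in EUC and EPL, with a log2 fold change of 0.33 and 0.29. Both calls were lost with total counts or upper-quartile scaling, and that in EPL also without any 1 PBS library or EPL3. Of 3 members tied to ribosomes, ZNF658 passed, and ZNF598 and ZNF622 did not.

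Of 5 members that silence transposons or keep heterochromatin, ZNF91, ZNF93, ZNF274, ZNF445 and ZNF765, none passed in any group by edgeR. Their smallest adjusted p was 0.0493 for EUC. ZNF91, which represses SVA elements, was at 22.3 CPM in PBS and 21.7 to 24.3 CPM in the BEV groups on average. ZNF445, which guards imprinted genes, was at 44.1 CPM in PBS and 30.9 to 35.8 CPM in the BEV groups.

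Of 9 members of the ubiquitin and signalling list, ZNF366, ZNF516, ZNF331 and ZNF675 passed as higher in at least 1 group and none passed as lower. The list is mixed and stands for no single function, as ZNF366, ZNF503 and ZNF516 are described here as cofactors or corepressors. ZNF331 passed in SPL alone with a log2 fold change of 0.36, and the call was lost without any 1 PBS or SPL library or EPL2, with edgeR adjusted p up to 0.0478. ZNF675 passed in EPL alone with 0.44, and the call was lost without PBS2, PBS3, EPL2 or EPL3, with edgeR adjusted p up to 0.0308. Both were also lost with total counts or upper-quartile scaling. ZNF516, a cofactor of brown fat genes, passed in EUC, EPL and SPL with log2 fold changes of 0.70, 0.79 and 0.59, and the SPL call was lost without any 1 PBS or SPL library. It held 196 to 223 CPM in PBS and 229 to 411 CPM in BEV libraries, and EUC3, EPL1 and SUC3 were the lowest of their groups.

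TRIM28 and SETDB1, through which KRAB boxes act, were not called. TRIM28 was at 763 ± 7.03 CPM in PBS (SD, n = 3) and 678 to 711 CPM in the BEV groups on average, and SETDB1 at 86.2 ± 3.54 CPM and 78.7 to 88.5 CPM. Of the 41 tested genes of the KRAB repression machinery, 6 passed the adjusted p as lower in some group and 3 as higher, together 22% of them, against 35% of all tested genes. EHMT2, which writes the repressive mark on histone H3 lysine 9, was the single DEG, with 118 to 125 CPM in PBS and 43.7 to 69.8 CPM in BEV libraries. Its log2 fold change was -1.20 ± 0.118 (SE) with EUC, -1.06 ± 0.117 with EPL and -0.93 ± 0.117 with both SUC and SPL.

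The E. coli and S. aureus groups were compared with each other without PBS. No ZNF gene was a DEG between them, while 0.686% of all tested genes were, and 19 members had an unadjusted p of at most 0.05, or 7.63%, against 17% of all tested genes. By DESeq2, 5 members passed the adjusted p alone. By edgeR, 3 did, or 1.2%, against 3.87% of all tested genes. ZNF589 was lower under E. coli BEVs by log2 -0.45 (95% interval -0.63 to -0.28, edgeR adjusted p = 0.00201). ZNF697 was higher by 0.32 (0.19 to 0.45, edgeR adjusted p = 0.0027), and ZNF503 was higher by 0.36 (0.19 to 0.52, edgeR adjusted p = 0.00795). ZNF503, a corepressor also called NOLZ1, was at 30.9 to 39.3 CPM in the 6 E. coli libraries and 23 to 30.7 CPM in the 6 S. aureus libraries, which do not overlap, and at 25.8 to 29.1 CPM in PBS. The call of ZNF503 was lost in 14 of the 15 fits that left out 1 library, and was kept only without SUC3 (edgeR adjusted p of 0.0106 to 0.0396 where lost). That of ZNF697 was lost without EUC2, EPL2 or SPL2.

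The next genes in each direction did not pass. ZNF267 had a log2 difference of 0.31 (edgeR adjusted p = 0.0108), ZNF710 of 0.40 (edgeR adjusted p = 0.0223) and ZNF704 of 0.40 (edgeR adjusted p = 0.096). ZNF641 had -0.32 (edgeR adjusted p = 0.0386), ZNF473 -0.27, ZNF438 -0.14 and ZNF785 -0.30. All 249 intervals of this difference lay within 2-fold, as did 99.8% of those of the well-expressed protein-coding genes and 86.6% over all tested genes. Without EUC3, EPL1 and SUC3, 10 members passed the adjusted p, or 4.02%, against 8.24% of all tested genes in that fit.

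**Figure D5:**
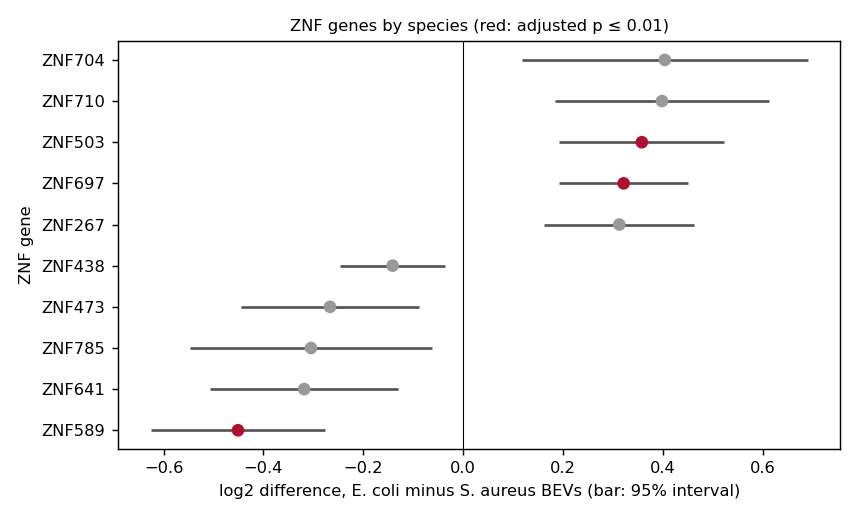
Points are the edgeR log2 differences between E. coli and S. aureus BEVs for the 5 ZNF genes of smallest adjusted p in each direction, and bars are 95% intervals. Red points, ZNF503, ZNF697 and ZNF589, passed an adjusted p of 0.01, and all differences are under 0.5 in size.

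The 2 isolation methods were compared within a species. Between EPL and EUC, no ZNF gene passed, and 0% of all tested genes did. A single member had an unadjusted p of at most 0.05, or 0.402%, against 3.51% of all tested genes, and DESeq2 called none. That member was ZNF254, with a log2 difference of -0.25 (95% interval -0.50 to -0.01, edgeR adjusted p = 0.947). Between SPL and SUC, no ZNF gene passed, against 0.00581% of all tested genes, and DESeq2 called none. There 9 members had an unadjusted p of at most 0.05, or 3.61%, against 5.81% of all tested genes. The smallest p was that of ZNF43, with a log2 difference of -0.40 (95% interval -0.65 to -0.15, edgeR adjusted p = 0.727). In both comparisons all 249 intervals lay within 2-fold of no difference. A difference of 2-fold or more was thus outside the interval of every member. The same held for 99.7% (EPL against EUC) and 99.8% (SPL against SUC) of the well-expressed protein-coding genes. Over all tested genes the shares were 77.7% and 77.5%.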

How the data were processed

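RNA-seq of 15 THP-1 libraries was deposited by the authors as a table of raw counts per gene, with Ensembl identifiers, symbols and gene classes. The submitters' processing notes name FastQC 0.11.5, HISAT2 2.1.0, StringTie 1.3.3b, featureCounts and DESeq 1.28.0 with hg38, without their roles. The strand setting is not given in the sources used here.

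Members and lists were chosen with earlier results of these data known. From the deposited counts, edgeR 4.0.16 (R 4.3.3) was run on all 15 libraries: low counts were filtered (17198 genes kept, all 249 members among them), TMM factors were computed and the quasi-likelihood test was applied to each contrast, with Benjamini-Hochberg adjustment over all genes. DEGs changed at least 2-fold with an adjusted p not above 0.01. CPM values are TMM-scaled except in the member rule. A prior count of 2 was used for the log2 CPM values behind the correlations and the GC and length correction. Fitted fold changes used the default of edgeR. The fits were also run on simulated counts drawn with the fitted spread. These held no deviating libraries, so they cannot show how the tests behave with EUC3, EPL1 and SUC3.

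Named genes were, by rule, up to 8 per direction called in all 4 BEV groups without overlap, the 5 of smallest adjusted p per direction between species, the member of smallest p between methods, members of the role lists, the 5 with most PBS reads per kilobase, 3 on each side of the threshold, the 5 with the smallest maximum change, and TRIM28, SETDB1 and called KRAB partners. Others are marked as chosen after their values were seen. Positions, lengths and motifs came from GENCODE 44, and 59 members share exons with a gene on the same strand and 82 with one on the opposite strand. Promoter windows came from RefSeq. Replicate numbers were not treated as a pairing in the main fit. Of 30 same-number correlations, 7 were over 0.1, which cannot show whether samples of the same number belong together. Alternatives covered scaling, the low-count filter, DESeq2 1.42.0, GC content and length, the replicate block, the member threshold and each library left out.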

Additional observations from a re-analysis of the deposited data

Results flagged for a closer look

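The 3 results below were marked because the effect of the BEVs against PBS differed between species, by the test of the difference itself. The log2 difference, E. coli minus S. aureus BEVs, was -0.45 for ZNF589, 0.36 for ZNF503 and 0.32 for ZNF697, and each passed an adjusted p of 0.01 in edgeR over 17198 genes. This contrast pools the 2 isolation methods. Between EUC and SUC alone, 1 member passed as lower and 0 as higher, against 2.49% of all tested genes in either direction. Between EPL and SPL alone, 0 members passed (smallest edgeR adjusted p = 0.122), against 0.384%. Species and dose cannot be told apart here. The call of ZNF503 was lost on leaving out any 1 library other than SUC3, and that of ZNF697 on leaving out EUC2, EPL2 or SPL2, with edgeR adjusted p of 0.0122 to 0.0124 for ZNF697.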

How the results depend on the processing

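Under upper-quartile scaling the members' median log2 fold change was -0.20 (EUC), -0.16 (EPL), -0.15 (SUC) and -0.14 (SPL), and 4 members were lower DEGs in all 4 groups. Under total counts it was -0.27, -0.20, -0.20 and -0.18, with 9 lower DEGs in EUC, 1 higher in SUC, and 4 lower and 1 higher in all 4 groups. Without the fold threshold the members lower and higher were 35 and 15 in EUC, 31 and 15 in EPL, 28 and 10 in SUC, 29 and 10 in SPL, 23 and 7 in all 4 groups, and 1 and 2 for E. coli against S. aureus. With members chosen by 1 PBS library, 1 was a higher DEG in SUC and 1 in all 4 groups in each choice, and 4 were lower in all 4 groups for PBS library 1. With a member threshold of 5 CPM (321 genes), 5 were lower in SUC. At 20 CPM (149 genes) 3 were lower and 1 higher in EUC, 3 and 1 in EPL, 0 were higher in SUC, 3 were lower and 0 higher in SPL, and 0 were higher in all 4 groups. Chosen by the 12 BEV libraries (224 genes), 3 were lower in EUC, 4 in EPL and 3 in SPL. On leaving out each library in turn, higher DEGs in SUC ranged from 1 to 2, lower in all 4 groups from 2 to 4 and higher in all 4 groups from 1 to 2. The higher calls in SUC and in all 4 groups rested on ZNF366 and fell to 1 without any 1 PBS library, SUC1 or SUC2. Lower calls in all 4 groups rose to 4 without PBS1. The remaining DEG counts and medians kept their direction and stayed within 1.5 times, or within the replicate spread, under every alternative run. For medians that spread was the SD between libraries, 0.052 (EUC), 0.074 (EPL), 0.063 (SUC) and 0.038 (SPL). It includes EUC3, EPL1 and SUC3, so it cannot judge their removal. Without these 3 libraries the SUC median went from -0.077 to -0.025. Counts by the adjusted p alone were run under fewer alternatives and moved further. Without EUC3, EPL1 and SUC3, lower members in SPL rose from 29 to 55. With members chosen by 1 PBS library and compared with the others, higher members in SUC fell from 10 to 4 or 5. No gene value reversed.

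Whether replicate numbers pair samples is not known (same-number correlations of -0.452 to 0.525). The replicate block gave 5 lower and 2 higher DEGs in EUC and a median of -0.11. With the block and a GC and length correction together these were 5, 4 and -0.12. The correction alone passed 48 lower and 23 higher in EUC by the adjusted p. In that fit the members' medians were -0.119 (EUC), -0.096 (EPL), -0.075 (SUC) and -0.084 (SPL). The medians of all tested genes were -0.008, -0.014, -0.003 and -0.014. Leaving out EUC3, EPL1 and SUC3 together was chosen after seeing the data. The causes of these changes were not tested. Depth limits members near 10 CPM the most.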
